A study of Mus spretus with 19 samples.

Results

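The circadian clock genes followed here as members were 10 genes of the core loop and its output arms: Arntl, Npas2, Per1, Per2, Per3, Gm129 (the older name of Ciart), Nr1d1, Nr1d2, Dbp and Nfil3. Other clock factors are given as a separate list below. They were found by their symbols in the probe annotation of a SOL array and followed on every array by probe. They had 14 probes, 3 for Nr1d1, 2 each for Per2 and Nfil3, and 1 for each of the other 7. Of the 10 genes, 9 passed the filter on dim probes and were tested among 16346 genes and transcripts. Npas2 did not pass.

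In the mammalian clock, the proteins of Arntl (BMAL1) and Clock bind E-box elements and switch on the Per and Cry genes, whose proteins then block that pair. Nr1d1 and Nr1d2 encode the REV-ERB receptors, which close a second loop by repressing Arntl, while Dbp and Nfil3 act in opposite directions on D-box elements. In liver these loops run daily, with Arntl transcripts peaking at another time of day than Dbp, Per and Nr1d1 transcripts, and they drive metabolic genes.

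The RNA came from livers of male Mus spretus, the Algerian mouse, caught wild in southwestern Spain. SOL (Santa Olalla lagoon) was labelled unpolluted. The other 4 sites were labelled polluted: PS, on phosphogypsum stacks, and 3 places along the Domingo Rubio stream, DR1 (lower course), DR4 (medium course) and DR6 (upper course). Each site was 1 pool of RNA from 9 mice, hybridized 4 times (3 times in the data used here for DR6) to single-colour mouse arrays designed for Mus musculus, 19 arrays in all. Ages, and the hour at which animals were caught or livers were taken, are not given in the sources used here. Arrays of a site repeat the labelling and hybridization of 1 pool, so p-values between sites measure that technical spread and not the spread between mice. Every site also had its own slide and scan day, so site and slide cannot be told apart.

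A level below is the log2 signal of a spot minus the log2 of the 75th percentile of its array, so that 0 is the 75th percentile. That percentile signal lay between 99.5 and 285 intensity units, and 52.0% to 61.5% of gene spots were well above background. Levels are compared between arrays for 1 probe and not between probes. A gene was called when limma's moderated test gave an adjusted p under 0.05 and the difference was at least 2-fold. In whole-liver RNA, fewer cells of a type and less RNA per cell cannot be told apart. All 8 hepatocyte markers tested (of 10 listed), among them albumin and transthyretin, were well above background on every array.

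The probes that decide the results are shown here because 3 of them had a spot in a low-signal area of an array, and because probes of the same gene did not always give the same result. They are 60-base oligonucleotides of mouse sequence, read from the DR1 array files and printed 5′ to 3′; positions are on mm8, per the file headers. The first 4 are whole and the last 4 are the 30 bases at the 3′ end.
Arntl A_52_P267651, chr7:113104645-113104704, plus strand: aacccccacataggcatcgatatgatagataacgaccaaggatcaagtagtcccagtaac
Nr1d1 A_51_P223776, chr11:98585302-98585804, minus strand: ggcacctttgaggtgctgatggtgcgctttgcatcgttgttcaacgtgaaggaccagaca
Nr1d1 A_52_P130952, chr11:98588108-98588167, minus strand: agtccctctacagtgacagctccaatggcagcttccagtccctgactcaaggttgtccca
Per2 A_52_P536869, chr1:93270367-93270426, minus strand: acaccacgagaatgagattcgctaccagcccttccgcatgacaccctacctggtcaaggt
Per2 A_51_P282760, within chr1:93246875-93246934, minus strand: ttttaaaggaaattcaatgttacagacagc
Nfil3 A_51_P111492, within chr13:52979932-52979991, minus strand: gctcaagagattcatagccacacaaccgat
Nfil3 A_52_P500027, within chr13:52979648-52979707, minus strand: tgttgccagtttcaataaaggattggtggc
Dbp A_51_P180492, within chr7:45577937-45577996, plus strand: acttacacctgacttcctccttgtcccatg
The 60 bases of Nr1d1 A_51_P223776 spread over 503 bases of the genome, so this probe crosses a gap. The Nfil3 probes start 284 bases apart and the Per2 probes 23492 bases apart. GC content of the 14 probes ran from 25% to 55%. Mismatches between these mouse sequences and Mus spretus transcripts were not analysed here.

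Spots on SOL replicate 1 set some of the values of Arntl, Nfil3 and Dbp. That array had an area of low signal covering 1852 gene spots (4.27%), in spot rows 247 to 289 and columns 13 to 72. There, the median of neighbouring spots was at least 2-fold below the same spots on the other SOL arrays. A smaller area of 598 gene spots (1.38%) lay on DR1 replicate 4, and no such area was found on the other 17 arrays. Of 266 spot values of the clock probes, 4 lay inside. The Arntl spot of SOL replicate 1 deviated by -2.47 log2 units from the median of its site's other arrays, where its 20 neighbours had a median deviation of -1.87. Nfil3 A_52_P500027 deviated by -2.86 there, with its 28 neighbours at -2.64, and Dbp by -1.63, with its 36 neighbours at -1.66. On DR1 replicate 4, the same Nfil3 probe deviated by -1.03 and its neighbours by -1.02. Around the other 262 spot values the neighbours' median deviation stayed between -0.40 and 0.36. The lower end was at the Arntl spot of DR1 replicate 4, which itself deviated by -0.33. The Dbp spot of that array deviated by -0.50, with its neighbours at -0.36. Results for Arntl, Dbp and Nfil3 are given with all spots and with the 4 spots inside the areas, and all others there, left out. That alternative keeps the Arntl and Dbp spots of DR1 replicate 4 and was chosen after seeing the data.

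**Figure D1:**
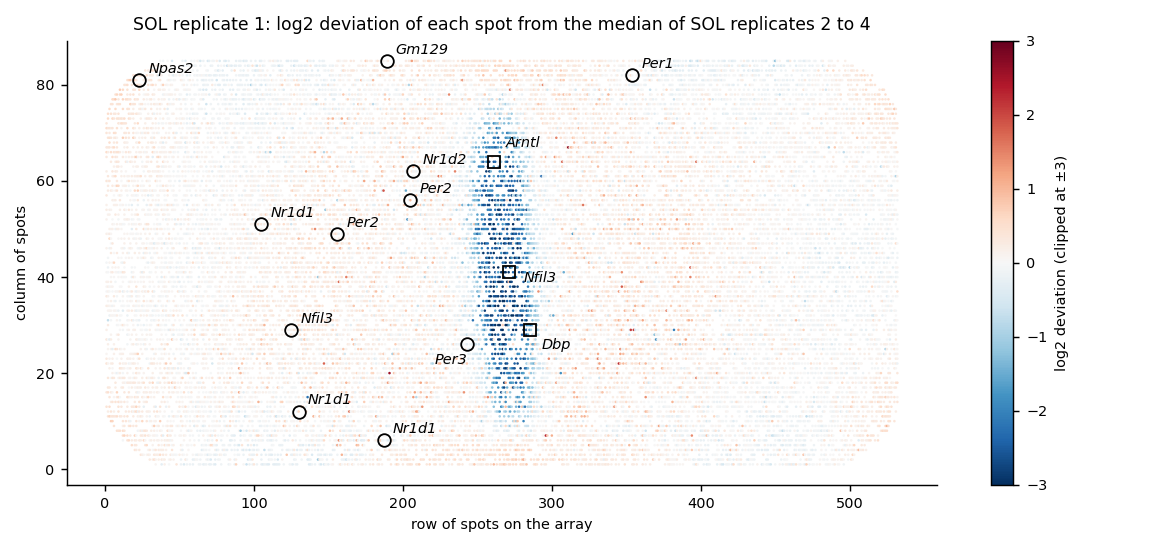
Each point is a gene spot of SOL replicate 1 at its row and column on the array, coloured by its log2 deviation from the median of SOL replicates 2 to 4; squares mark clock probes inside the low-signal area and circles clock probes outside. The Arntl spot (row 261, column 64), the Nfil3 spot (row 271, column 41) and the Dbp spot (row 285, column 29) lie inside the blue area, and the second Nfil3 spot (row 125) lies far from it.

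Against SOL, 8 of the 9 tested clock genes were called at 1 or more polluted sites, and Nr1d2 was called at none. Of all genes tested, 17.3% were called at 1 or more of these sites. The members were chosen with earlier results of these data known. Their shares beside those of all genes are therefore descriptions, here and below, and not a test of the set. At PS, 3 of 9 were called, all higher: Gm129, Dbp and Nr1d1; over all genes tested, 4.42% were called, 2.23% higher and 2.18% lower. At DR1, 4 of 9 were called, with Arntl, Nfil3 and Gm129 higher and Per3 lower (6.08% of all genes, 3.53% higher and 2.55% lower). At DR4, 5 of 9 were called, with Arntl and Nfil3 higher and Dbp, Per2 and Per3 lower (10.5% of all genes, 5.43% higher and 5.10% lower). At DR6, 5 of 9 were called, all higher: Gm129, Dbp, Nfil3, Nr1d1 and Per1 (6.95% of all genes, 4.67% higher and 2.28% lower). The median difference of the 9 members was 0.07 at PS, -0.01 at DR1, -0.10 at DR4 and 1.05 at DR6, where the median of all genes lay between -0.05 and 0.01. These 4 comparisons share the SOL arrays.

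Leaving out the low-signal spots changed 4 of those 36 calls. Arntl and Nfil3 were no longer called at DR1, Dbp was no longer called at PS, and Nfil3 at PS became a call in the lower direction. The counts were then 3 at PS, 2 at DR1, 5 at DR4 and 5 at DR6, against 4.33%, 6.12%, 10.4% and 6.75% of all genes. With normexp background correction in place of the scanner software's own, 0 members were called at PS and DR1 and 2 each at DR4 (Arntl and Dbp) and DR6 (Dbp and Gm129).

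**Figure D2:**
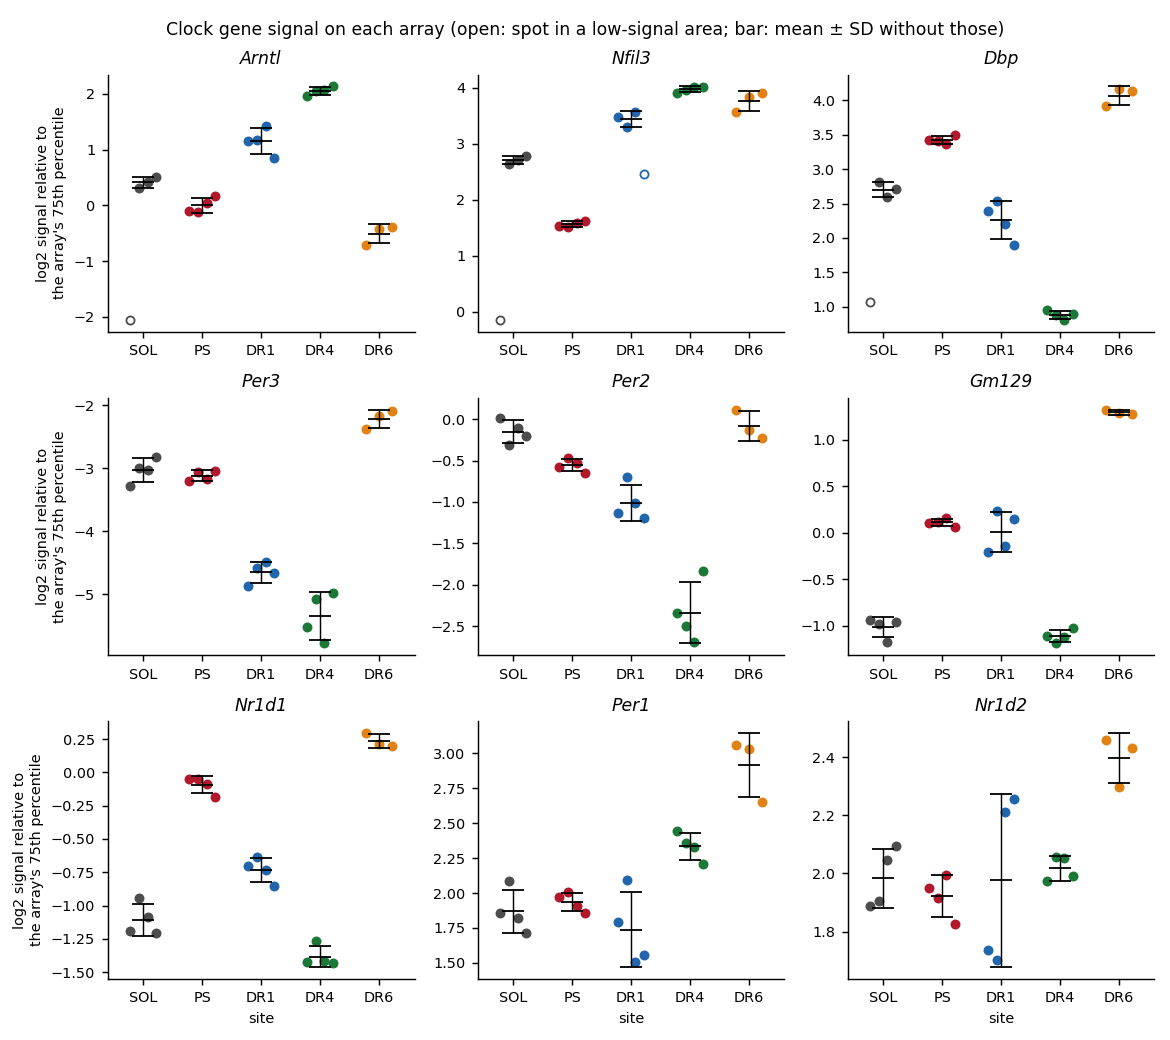
Log2 level (y axis, relative to the array's 75th percentile) of the 9 tested clock genes on each of the 19 arrays by site (x axis); points are arrays, open points are spots in a low-signal area, and bars give the mean and SD of the filled points. Arntl is highest at DR4 (1.95 to 2.13) and lowest at DR6 (-0.70 to -0.39) among filled points, where Dbp is lowest (0.81 to 0.95) and highest (3.91 to 4.16), respectively; the Per3 points of DR4 are not well above background.

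Arntl encodes BMAL1, the activator of the loop that partners with CLOCK. Its level on the 4 SOL arrays was -2.05, 0.31, 0.42 and 0.51, and the first of these is the spot in the low-signal area. At PS it was -0.11, -0.11, 0.05 and 0.17. At DR1 it was 1.14, 1.17, 1.42 and 0.85. The DR1 arrays were all above those of SOL and PS. At DR4 Arntl read 1.95, 2.04, 2.07 and 2.13, above every other array of the study, and at DR6 -0.70, -0.43 and -0.39, below every array but SOL replicate 1. Against SOL, Arntl was higher at DR4 by 2.25 ± 0.39 (SE; adjusted p = 0.000112) and by 1.64 ± 0.12 without the low-signal spots (adjusted p = 6.47e-09). The DR1 difference of 1.35 became 0.73 without those spots, under the 2-fold limit though past the p limit (adjusted p = 8.54e-05). The PS value turned from 0.20 to -0.41 (adjusted p = 0.0117), and the DR6 value went from -0.30 (adjusted p = 0.593) to -0.92 (adjusted p = 2.04e-05), neither of them a call.

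Npas2 encodes a relative of CLOCK that can replace it. Its probe was not well above background on any of the 19 arrays, with readings between -6.54 and -4.58, so only an upper bound on its signal exists at each site. No order of the sites is read from this probe.

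The repressors of the loop did not move together. Per2, whose protein enters the PER and CRY complex, was lowest at DR4 by its brightest probe, A_51_P282760. On the SOL arrays this probe read 0.01, -0.31, -0.11 and -0.20, and at PS -0.58, -0.47, -0.53 and -0.65. At DR1 it read -1.14, -0.70, -1.01 and -1.20, and at DR4 -2.34, -2.50, -2.68 and -1.83. The 4 DR4 arrays lay below all others. At DR6 it read 0.11, -0.13 and -0.23, overlapping SOL. Per2 was lower at DR4 than at SOL by 2.18 log2 units ± 0.15 (SE; difference -2.18, 4.54-fold, adjusted p = 2.38e-09). At DR1 the difference of -0.86 ± 0.15 passed the p limit but not the 2-fold limit (adjusted p = 0.000178). With normexp the DR4 difference was -0.87, under 2-fold. The second Per2 probe, A_52_P536869, did not show the DR4 difference: it was -0.07 ± 0.19 (adjusted p = 0.778).

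Per3, a PER protein dispensable for core rhythms in many settings, had a dim probe that was well above background on 11 of 19 arrays. It read -3.28, -3.001, -3.02 and -2.81 at SOL (3 of 4 arrays well above background) and -3.20, -3.05, -3.18 and -3.04 at PS, ranges that overlap. At DR1 it read -4.87, -4.58, -4.49 and -4.66, with 1 of 4 arrays well above background. At DR4 it read -5.53, -5.08, -5.78 and -4.98, with none of the 4 arrays well above background. The DR6 arrays, at -2.37, -2.18 and -2.09, were the highest. The fitted difference of DR1 from SOL was -1.62 (adjusted p = 1.86e-07), but 3 of its 4 DR1 readings are not well above background. With such readings raised to the floor of their array, which is the lowest signal among probes well above background, it was -1.29 (2.44-fold, with no test of its own, chosen after seeing the data). At DR4 Per3 was lower than at SOL (fitted means -5.34 and -3.03, adjusted p = 1.06e-09), by 2.85-fold with the floor used. That value sets the SOL mean against, per DR4 array, the higher of the probe's own value and that floor. The floor is not a detection limit. SOL replicate 1, at -3.28, was not well above background, though the highest floor of any array was -3.90. The value with the floor is therefore not a strict lower bound. With normexp the Per3 differences were -0.50 at DR1 (adjusted p = 0.441) and -0.08 at DR4 (adjusted p = 0.879), and neither was a call. At DR6 the difference of 0.82 ± 0.16 was under 2-fold (adjusted p = 0.000628).

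Per1, a PER gene that also answers directly to hormone and feeding signals, was highest at DR6. It read 1.86, 2.08, 1.82 and 1.71 at SOL, 1.97, 2.01, 1.91 and 1.86 at PS, and 1.80, 2.09, 1.51 and 1.56 at DR1. These 3 sites overlapped one another. At DR4 it read 2.44, 2.36, 2.33 and 2.21 and at DR6 3.06, 3.03 and 2.65. Per1 was higher at DR6 than at SOL by 1.05 ± 0.13 (2.07-fold, adjusted p = 6.94e-06). The call sits at the 2-fold limit: the difference lay between 0.97 and 1.18 over the leave-one-out fits and was under the limit without SOL replicate 4, DR6 replicate 1 or DR6 replicate 2, and with median scaling (0.96). At DR4 it was 0.47 ± 0.12 (adjusted p = 0.00362).

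Gm129 encodes a repressor that binds the BMAL1 and CLOCK pair. It read -0.94, -0.97, -1.17 and -0.95 at SOL and -1.11, -1.19, -1.12 and -1.02 at DR4, which overlap. At PS it read 0.11, 0.12, 0.15 and 0.06, and at DR1 -0.20, 0.23, -0.14 and 0.15. At DR6 it read 1.32, 1.28 and 1.27, the highest of the 5 sites on every array. Against SOL it was higher by 2.30 ± 0.09 at DR6 (4.94-fold, adjusted p = 5.06e-12), by 1.12 ± 0.08 at PS (adjusted p = 2.13e-08) and by 1.02 ± 0.08 at DR1 (adjusted p = 5.04e-08). The DR1 call was lost at the 2-fold limit without SOL replicate 3 or DR1 replicates 2 or 4, with differences between 0.95 and 1.09 over the leave-one-out fits. At DR4 the difference was -0.10 (adjusted p = 0.335).

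Of the REV-ERB receptors, which bind heme and repress Arntl, Nr1d1 differed between sites more than Nr1d2 did: its site means spanned 1.62 log2 units and those of Nr1d2 0.48. That contrast of ranges was not tested. The brightest Nr1d1 probe, A_51_P223776, read -1.19, -0.94, -1.09 and -1.20 at SOL, -0.05, -0.05, -0.09 and -0.18 at PS, and -0.70, -0.64, -0.74 and -0.85 at DR1. At DR4 it read -1.42, -1.27, -1.41 and -1.43 and at DR6 0.29, 0.21 and 0.20. No 2 sites overlapped. Against SOL it was higher at DR6 by 1.34 ± 0.07 (2.53-fold, adjusted p = 2.65e-10) and at PS by 1.01 ± 0.07 (adjusted p = 3.82e-09). The PS call was lost without SOL replicate 1, SOL replicate 4 or PS replicate 1, with differences between 0.98 and 1.07. At DR1 it was 0.37 and at DR4 -0.28, each past the p limit and under 2-fold (adjusted p = 0.000192 and 0.00193).

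Nr1d2 was called in no comparison. Its arrays read 1.89, 1.91, 2.05 and 2.09 at SOL, 1.95, 1.92, 1.995 and 1.83 at PS, 1.74, 1.70, 2.21 and 2.26 at DR1, and 1.97, 2.06, 2.05 and 1.99 at DR4. These 4 sites overlapped. The DR6 arrays read 2.46, 2.30 and 2.43, above all the others, and the difference from SOL was 0.41 ± 0.12 (adjusted p = 0.00843).

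Dbp and Nfil3 act on the same D-box element, Dbp as an activator and Nfil3 as a repressor. Dbp read 1.08, 2.81, 2.59 and 2.71 at SOL, and the first of these is the spot in the low-signal area. It read 3.42, 3.40, 3.37 and 3.50 at PS and 2.39, 2.53, 2.20 and 1.90 at DR1. At DR4 it read 0.95, 0.88, 0.81 and 0.89, below every other array, and at DR6 3.91, 4.16 and 4.13, above every other array. Against SOL, Dbp was lower at DR4 by 1.41 log2 units ± 0.27 (difference -1.41, adjusted p = 0.000272), and the difference was -1.82 ± 0.12 without the low-signal spots (adjusted p = 1.59e-09). It was higher at DR6 by 1.77 ± 0.29 (adjusted p = 0.000114), or 1.36 ± 0.12 without them (adjusted p = 2.71e-07). At PS the difference of 1.12 (adjusted p = 0.00386) became 0.72 without them (adjusted p = 0.000159), under 2-fold. At DR1 it went from -0.04 (adjusted p = 0.916) to -0.45 (adjusted p = 0.00443), and neither was a call.

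Nfil3 was higher at the 3 stream sites than at PS. Its brightest probe, A_52_P500027, read -0.14, 2.64, 2.71 and 2.78 at SOL and 1.53, 1.52, 1.59 and 1.63 at PS. At DR1 it read 3.48, 3.29, 3.56 and 2.46. The first SOL value and the last DR1 value are spots in low-signal areas. At DR4 it read 3.91, 3.97, 4.02 and 4.02 and at DR6 3.57, 3.84 and 3.90. Against SOL the difference was 1.98 ± 0.47 at DR4 and 1.77 ± 0.50 at DR6 (adjusted p = 0.00171 and 0.00913), and without the low-signal spots 1.27 ± 0.08 and 1.06 ± 0.09 (adjusted p = 5.25e-09 and 2.13e-07). At DR1, 1.20 (adjusted p = 0.0431) became 0.74 (adjusted p = 7.65e-06), under 2-fold. The DR6 call was lost with only these 2 sites in the fit (adjusted p = 0.0919). The DR1 call was also lost in 15 of the 19 fits that leave out 1 array. At PS, -0.43 (adjusted p = 0.515) became -1.14 (adjusted p = 5.36e-08), a call.

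**Figure D3:**
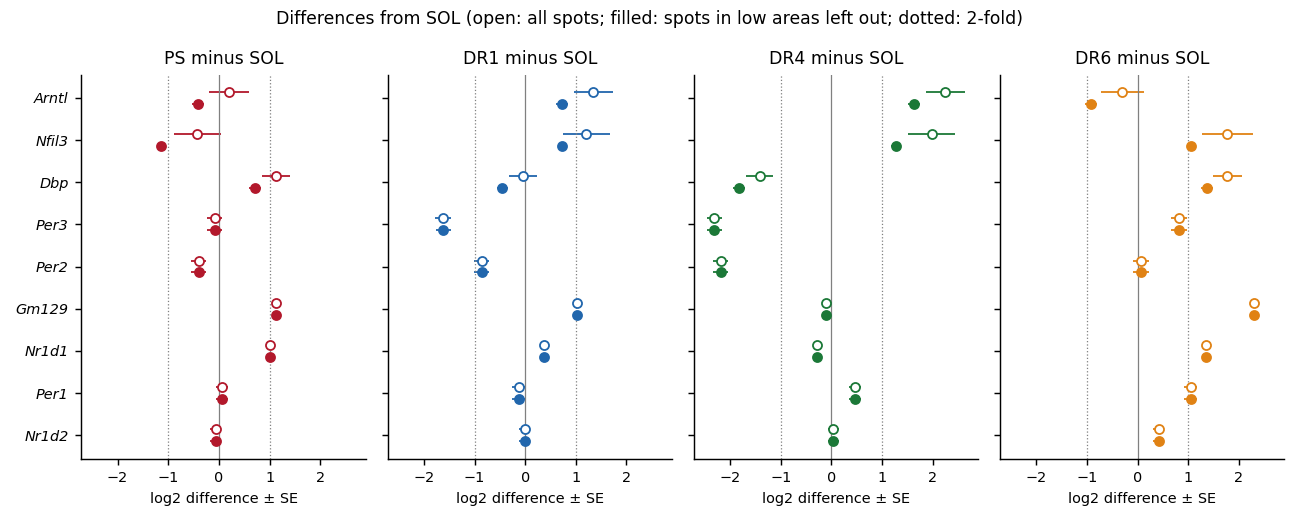
Fitted log2 difference from SOL (x axis, with its SE) of the 9 tested clock genes (y axis) at the 4 polluted sites; open points use all spots, filled points leave out the low-signal areas, and dotted lines mark 2-fold. For Arntl at DR4 the open point is at 2.25 and the filled one at 1.64, and the SE falls from 0.39 to 0.12; the open and filled points of Per1, Per2, Per3, Gm129, Nr1d1 and Nr1d2 coincide.

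The second Nfil3 probe, A_51_P111492, lies outside the low-signal areas and gives a reading that does not depend on them. It read 1.72, 1.68, 1.57 and 1.51 at SOL, 0.81, 0.83, 0.77 and 0.68 at PS, and 2.31, 2.57, 2.31 and 2.52 at DR1. At DR4 it read 2.87, 2.85, 2.87 and 2.84 and at DR6 2.60, 2.61 and 2.59. No 2 sites overlapped. In a fit over probes its differences from SOL were -0.85 at PS, 0.81 at DR1, 1.24 at DR4 and 0.98 at DR6, each with an adjusted p of 5.26e-08 or lower. By the same 2-fold limit this probe was called at DR4 alone. Over the 19 arrays the correlation of both Nfil3 probes was 0.79, and 0.98 without the low-signal spots.

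For Nr1d1 and Per2 the probes of a gene differed more. Their other probes were dim, though well above background on all 19 arrays. Nr1d1 A_52_P130952 read -3.28 to -2.38, Nr1d1 A_52_P130961 -3.60 to -2.08 and Per2 A_52_P536869 -3.10 to -2.01. Nr1d1 A_52_P130952, printed above, differed from SOL by -0.03 at PS, where A_51_P223776 gave 1.01, and by 0.35 ± 0.12 at DR6 (adjusted p = 0.0316). The third Nr1d1 probe, A_52_P130961, differed by -0.26 at PS and 0.65 at DR6 (adjusted p = 0.516 and 0.0898). All 3 Nr1d1 probes had their highest site mean at DR6 and their lowest at DR4. Averaging the probes of each gene ended the Nr1d1 calls at PS (0.24, adjusted p = 0.108) and DR6 (0.78) against SOL and at DR4 against PS (-0.62), and the Per2 calls at DR4 against PS (-0.98) and against DR1 (-0.84). For Per2 the correlation between probes over the 19 arrays was 0.33. These correlations are descriptions over arrays that share 5 pools and slides.

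**Figure D4:**
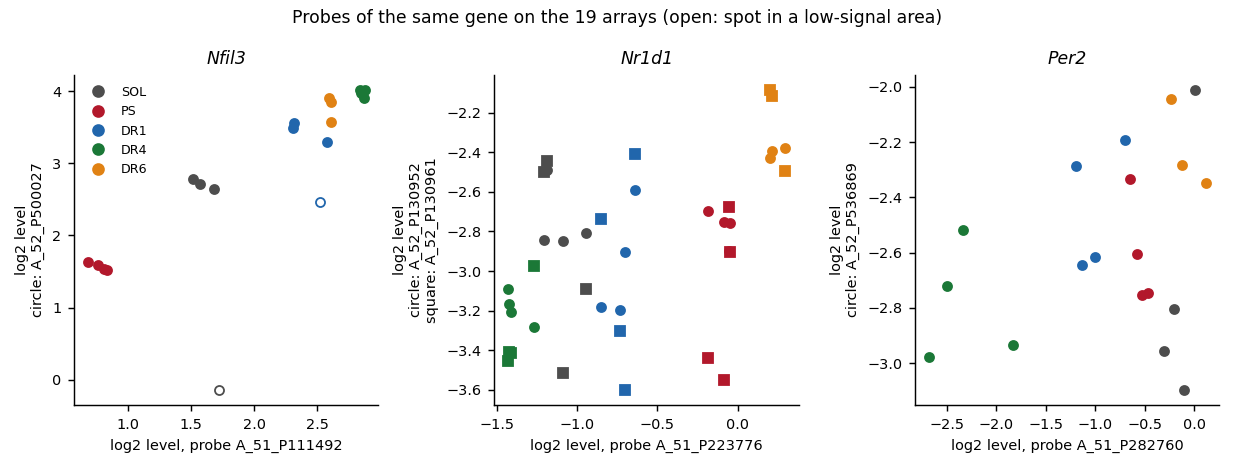
Log2 level of the other probes of Nfil3, Nr1d1 and Per2 (y axis) against a first probe of the same gene (x axis), 1 point per array, coloured by site; open points have a spot in a low-signal area. The Nfil3 arrays line up apart from the open points of SOL replicate 1 and DR1 replicate 4, while the Per2 arrays of DR4 lie at -2.68 to -1.83 on the first probe with no such shift on the second.

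Within the stream, the upper course, DR6, and the medium course, DR4, lay at opposite ends for Arntl, Dbp, Gm129, Per2 and Nr1d1, and neither site has an array with a low-signal area. There, 6 of 9 members were called, against 6.16% of all genes (3.78% higher at DR6 and 2.39% lower). Dbp was 9.10-fold higher at DR6 (3.19 ± 0.29, adjusted p = 1.88e-07), Gm129 5.29-fold (2.40 ± 0.09, adjusted p = 2.29e-12), Per2 4.77-fold (2.25 ± 0.16, adjusted p = 1.05e-08) and Nr1d1 3.07-fold (1.62 ± 0.07, adjusted p = 2.03e-11). Per3 was also called higher at DR6, by 5.02-fold with the dim DR4 readings raised to the floor. Arntl was the 1 call in the other direction, 5.88-fold lower at DR6 (-2.56 ± 0.42, adjusted p = 0.000113). Nfil3 differed by -0.21 (adjusted p = 0.77) and, at 0.58 and 0.38, Per1 and Nr1d2 were under 2-fold. The arrays of these sites did not overlap for any of the 9 genes, nor for 54.7% of all genes tested. With normexp the Per2 (0.95), Nr1d1 (0.90) and Per3 (0.32, adjusted p = 0.734) calls were lost. By their other probes, Per2 A_52_P536869 differed by 0.56 and Nr1d1 A_52_P130952 by 0.79, both under 2-fold. The third Nr1d1 probe, A_52_P130961, differed by 1.08 and passed both limits in the fit over probes (adjusted p = 0.00766).

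The other pairs of polluted sites gave 7 calls for DR4 against PS (8.96% of all genes, 4.64% higher and 4.32% lower), 5 for DR6 against DR1 (7.50%), 4 for DR1 against PS (6.36%), 3 for DR4 against DR1 (5.15%) and 2 for DR6 against PS (7.30%). Against PS, DR4 had Arntl (2.05) and Nfil3 (2.41) higher. Dbp (-2.54), Per2 (-1.78), Nr1d1 (-1.29), Gm129 (-1.22) and Per3 (2.69-fold with the dim DR4 readings at the floor) were lower. Of these 7 calls, normexp ended those of Per2 (-0.69), Nr1d1 (-0.58), Gm129 (-0.66) and Per3 (-0.13, adjusted p = 0.834), and averaging the probes those of Per2 and Nr1d1. DR6 had Nfil3 (2.20, adjusted p = 0.0955 with normexp and no longer a call) and Gm129 (1.18) higher than PS. Leaving out the low-signal spots changed none of these calls between polluted sites.

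Measured by the span of the 5 site means, Dbp varied 9.10-fold, at the 99.1 percentile of all genes tested. Arntl (5.88-fold), Nfil3 (5.32-fold), Gm129 (5.29-fold) and Per2 (4.77-fold) lay between the 96.5 and 97.9 percentiles, Nr1d1 at 91.8 and Per1 at 82.4. Nr1d2 lay at the 26.7 percentile with 1.39-fold. The gene at the median spanned 0.68 log2 units. These percentiles describe members that were chosen with earlier results of these data known. The fitted span of Per3, 3.13, rests on DR4 readings that are not well above background.

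With low-signal spots left out, the sites ranked for Arntl as DR4, DR1, SOL, PS and DR6 from high to low, and each neighbouring pair differed past the p limit (adjusted p between 4.87e-06 and 0.0117). For Dbp the rank was DR6, PS, SOL, DR1 and DR4, with each step past the p limit as well. That is the Arntl rank in reverse order. Leaving those spots out was chosen after seeing the data. These ranks keep the Arntl and Dbp spots of DR1 replicate 4, which were low together with their neighbours but outside the area. With all spots, PS ranked above SOL for Arntl, and that step did not pass (adjusted p = 0.729). Nor did the Arntl steps from DR4 to DR1 (adjusted p = 0.0704) and from SOL to DR6 (adjusted p = 0.593). For Dbp with all spots, the steps from DR6 to PS (adjusted p = 0.0846) and from SOL to DR1 (adjusted p = 0.916) did not pass. The correlation of Arntl and Dbp over the 5 site means was -0.87 with all spots and -0.99 without the low-signal spots. Each site mean is 1 pool on 1 slide.

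Other members ranked the sites differently. Per2 ranked them DR6, SOL, PS, DR1 and DR4, where the step from DR6 to SOL did not pass the p limit (0.07, adjusted p = 0.753). Per3 was highest at DR6, followed by SOL and PS, a step that did not pass (0.09, adjusted p = 0.697), and its DR1 and DR4 readings, mostly not well above background, are given no order. Gm129 and Nr1d1 ranked them DR6, PS, DR1, SOL and DR4. For Gm129 the steps from PS to DR1 and from SOL to DR4 did not pass the p limit (adjusted p = 0.334 and 0.335), and for Nr1d1 all 4 steps passed. Nfil3, without the low-signal spots, ranked them DR4, DR6, DR1, SOL and PS, where the step from DR4 to DR6 did not pass the limit (0.21, adjusted p = 0.0532). DR6 thus stood at the low end for Arntl but near the high end for Nfil3.

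Genes with array profiles most like Dbp were sought among 1935 named non-member genes that varied over sites and whose signal passed the background test on each of the 19 arrays. The closest by Pearson correlation were Mterfd3 (0.91), Smtnl1 (0.91), Klf10 (0.90), Abcc4 (0.90) and Dopey2 (0.90). With the low-signal spots left out there were 1875 such genes, compared over 18 arrays (16 for Cyp4a14 and Cyp3a25), and the closest were Mterfd3 (0.97), Cyp4a14 (0.96), Tef (0.95), Mboat5 (0.95) and Adssl1 (0.95), so 1 of 5 was shared. Tef encodes a D-box activator of the same family as Dbp. For Arntl the closest were Glt28d2 (0.92), Tsc22d2 (0.92), Npm3 (0.89), Aasdhppt (0.89) and Ube1l2 (0.88), and Tsc22d2 also has its SOL replicate 1 spot in the low-signal area. Without those spots they were Exosc6 (0.97), Ube1l2 (0.96), Smc5 (0.96), Cyp3a25 (0.96) and Sumf1 (0.96), again with 1 shared.

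Of 19 other clock factors, 13 were tested. Called against SOL were 1 at PS, 0 at DR1, 3 at DR4 and 1 at DR6, where 4.42%, 6.08%, 10.5% and 6.95% of all genes were called. Cry1, whose protein is the main partner of PER in repression, was lower at PS (-1.42 ± 0.09, adjusted p = 2.42e-09). At DR4, Rora, the receptor that activates Arntl through the element REV-ERB represses, was higher (1.09, adjusted p = 2.48e-11). Hlf, a D-box activator like Dbp, and Timeless were lower there (-1.41, adjusted p = 1.08e-09, and -1.60, adjusted p = 1.11e-06). With the mean of its probes Timeless differed by -0.65, under 2-fold, and with normexp by -0.57 (adjusted p = 0.111). Bhlhb2, an E-box repressor also called DEC1, was higher at DR6 (1.99 ± 0.10, adjusted p = 1.38e-10). The median difference of the 13 genes lay between -0.20 and 0.11 at the 4 sites.

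Of 17 clock-controlled liver genes, 16 were tested, with 0 called at PS, 3 higher at DR1, 3 higher and 2 lower at DR4, and 4 higher at DR6, beside the same 4.42%, 6.08%, 10.5% and 6.95% of all genes. Elovl3, a fatty acid elongase, was higher by 2.95 at DR1, 2.82 at DR4 and 3.50 at DR6 (11.3-fold, adjusted p = 7.09e-17), while its mean at PS, 2.01, lay beside that at SOL, 1.90. Lpin1, a phosphatidate phosphatase and coactivator, was higher by 1.67, 2.21 and 1.93 at the same 3 sites. Pbef1 (Nampt), of NAD salvage, was higher at DR4 (1.68) and at DR1 (1.02, lost without SOL replicates 1 or 2 or DR1 replicate 2, with quantile normalization and with the mean of its probes). Usp2, a deubiquitinase, was lower at DR4 by 2.19 log2 units (-2.19 ± 0.06, adjusted p = 2.45e-14), and Rgs16, a regulator of G-protein signalling, by 1.04 (-1.04). At DR6, Ccrn4l (nocturnin) was higher by 1.27. The fourth call there, Gys2 (liver glycogen synthase, 1.03), rests on 1 DR6 array, since the other spots carried outlier flags and were left out, and that array is assumed to vary like the other groups. It was lost with those spots kept (0.94), with median scaling (0.95), quantile normalization (0.91), normexp (adjusted p = 0.413) or the replicate block (0.96), and without SOL replicate 4 (0.98). The median difference of the 16 genes was 0.01 at PS, -0.27 at DR1, -0.28 at DR4 and 0.25 at DR6.

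Temperature and glucocorticoid signals can reset liver clocks, and 11 genes that answer to them were tested. Called were 1 at PS, 4 higher and 2 lower at DR1, 4 higher and 1 lower at DR4, and 3 higher at DR6, again beside 4.42%, 6.08%, 10.5% and 6.95% of all genes. The median difference of the 11 genes was -0.09 at PS, -0.16 at DR1, 0.10 at DR4 and 0.35 at DR6. Sgk, a kinase induced by glucocorticoids, was higher by 3.00 at DR1, 3.63 at DR4 and 3.22 at DR6 (12.4-fold at DR4, adjusted p = 2.10e-14); 2 of its 4 DR1 spots carried outlier flags and were left out. Cirbp, a cold-inducible RNA-binding protein, was higher at all 4 sites, by 1.08 at PS, 1.41 at DR1, 2.33 at DR4 and 1.48 at DR6. Dusp1, a phosphatase of stress-activated kinases, was higher by 1.25, 2.03 and 1.53 at the stream sites, and Tsc22d3, a glucocorticoid-induced leucine zipper, by 1.09 at DR1 and 1.23 at DR4. The heat shock gene Hspa1b was lower at DR1 (-1.45) and DR4 (-1.29), and Hspa1a at DR1 (-1.07). Fkbp5, also a glucocorticoid target, was not called at any site. Of the 32 calls of these 3 lists, normexp ended 10: Cry1 (-0.47, adjusted p = 0.333) and Cirbp (0.84) at PS, Tsc22d3, Hspa1a and Hspa1b at DR1, Rora (0.80, adjusted p = 0.102), Timeless, Tsc22d3 and Hspa1b at DR4, and Gys2 at DR6. Averaging probes ended 3, of Timeless and Hspa1b (-0.94) at DR4 and of Pbef1 at DR1, and leaving out the low-signal spots ended 0.

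**Figure D5:**
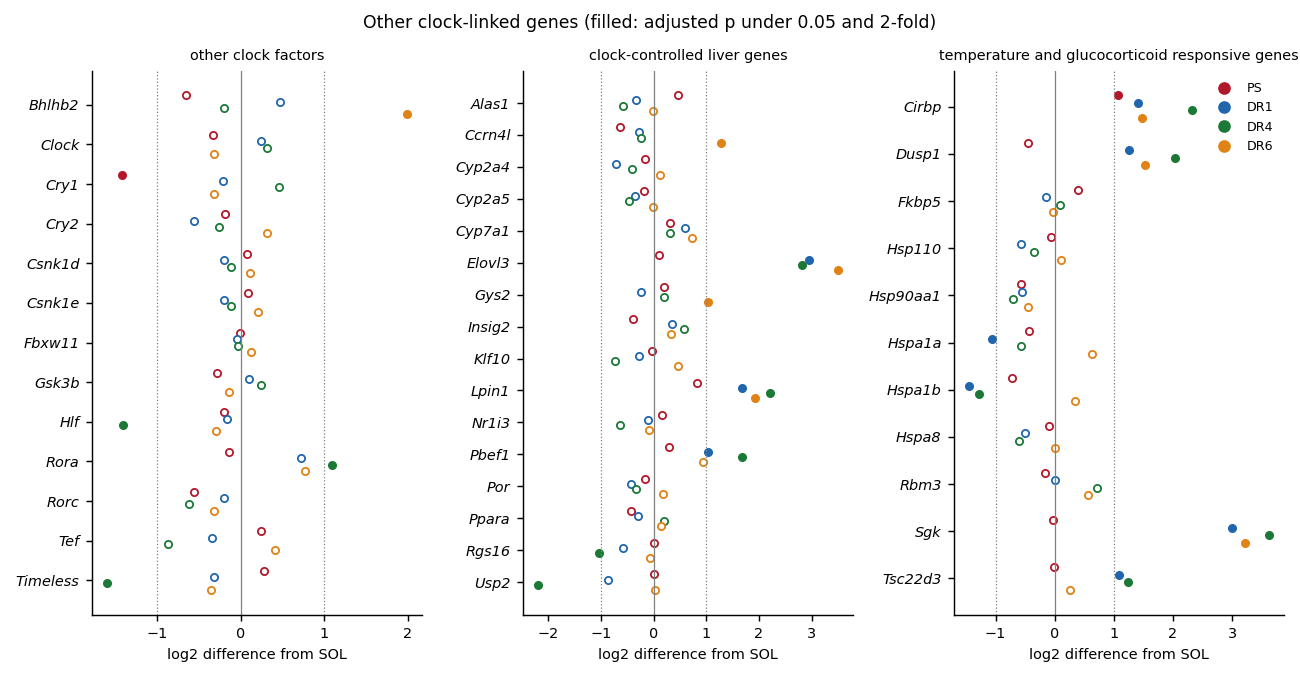
Log2 difference from SOL (x axis) of the tested genes of 3 lists (y axis: other clock factors, clock-controlled liver genes, temperature and glucocorticoid responsive genes), 1 point per polluted site; filled points passed both limits. Elovl3 and Sgk lie at 2.82 or more at DR1, DR4 and DR6 and near 0 at PS, and Bhlhb2 stands apart at DR6 (1.99).

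Summed levels of markers of some other cells differed between sites. The marker calls against SOL stand beside 4.42% of all genes called at PS, 6.08% at DR1, 10.5% at DR4 and 6.95% at DR6. A single call in such a short list is not read as a shift of that cell type. The summed level of 10 exocrine pancreas markers, in multiples of the 75th percentile signal, was 1342 to 1524 over the SOL arrays, 340 to 348 at PS, 695 to 786 at DR1, 141 to 182 at DR4 and 1628 to 1661 at DR6. All 10 were well above background on every array, and against SOL 10 of 10 were called lower at PS and at DR4, 3 at DR1 and 0 at DR6. DR4 and DR6 are thus the low and high ends of the pancreas markers as well as of Dbp and Gm129. For Dbp and Gm129, PS and SOL took the opposite order: the pancreas markers were lower at PS than at SOL, while Dbp and Gm129 were higher. Mean Dbp was 3.42 at PS and 2.30 at SOL (2.70 without the low-signal spot), and mean Gm129 was 0.11 and -1.01. By their brightest probes, Nr1d1 and Per2 also had their low and high ends at DR4 and DR6. Of these, Nr1d1 was higher at PS than at SOL (means -0.09 and -1.11). Per2 was lower at PS than at SOL (means -0.56 and -0.15), as the pancreas markers were. The summed level of 7 Kupffer cell and macrophage markers was 148 to 173 at SOL, 123 to 128 at PS, 117 to 131 at DR1, 63.4 to 73.6 at DR4 and 66.9 to 71.6 at DR6. Against SOL, 0 of these 7 were called lower at PS, 1 at DR1, 3 at DR4 and 1 at DR6. The summed level of 4 erythroid markers was 754 to 780 at SOL, 757 to 860 at PS, 379 to 417 at DR1, 306 to 308 at DR4 and 359 to 375 at DR6. Called lower against SOL were 0 of these 4 at PS, 1 at DR1, 4 at DR4 and 3 at DR6. Of 8 markers of B, T and NK cells, 1 was called higher at each of PS, DR1 and DR6 and 0 at DR4. Of 5 cholangiocyte markers, 0 were called at any of these sites. Hepatocyte markers summed to 1738 to 2483 at SOL, 1579 to 1865 at PS, 1272 to 1673 at DR1, 1626 to 1822 at DR4 and 2204 to 2320 at DR6. The DR1 arrays lay below all SOL arrays in this sum, though the median difference of the 8 markers at DR1 was -0.04. Gene spots flagged as saturated numbered 74 to 148 on the DR1 arrays and 38 to 59 on the SOL arrays. Their part in the sums was not tested. Against SOL, 1 of 8 was called lower at PS and 0 at the other 3 sites. The part of these cells in the clock gene results was not tested.

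The labels pair pollution with 4 of the 5 pools, and with each pool as 1 unit the design has little power. Comparing the 4 polluted pools with the SOL pool, 0 of 16346 genes passed the adjusted p limit in limma, and 665 (4.07%) had an unadjusted p under the limit, none of them a clock gene. Comparing the 3 stream pools with SOL and PS, 0 passed and 1691 (10.3%) had such an unadjusted p. Among the clock genes this was Nfil3 alone, higher in the stream pools by 1.87 ± 0.29 (unadjusted p = 0.000496, adjusted p = 0.181). Its 3 stream pools were all above both other pools, and the exact two-sided permutation p was 0.1, the smallest that 3 pools against 2 allow. Without the low-signal spots it was 1.59 ± 0.36 (unadjusted p = 0.0041, adjusted p = 0.334), and the exact permutation p was again 0.1. For Arntl the same contrast was 1.00 ± 0.68 (adjusted p = 0.645) and for Dbp -0.46 ± 0.88 (adjusted p = 0.882). Among the stream pools, DR4 and DR6 were the highest and lowest of the 5 pools for Arntl and the lowest and highest for Dbp.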

How the data were processed

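Per the labels, total RNA of individual livers was pooled by site, amplified, labelled with Cy3 and hybridized, 4 technical repeats to a pool; 1 array set of DR6 holds 3. Per the submitters' processing notes, the authors read the scans with Agilent Feature Extraction 9.5.3.1. The deposited scanner files hold the linear intensity of each spot, background-subtracted by that software, together with the mean spot intensity and local background intensity before subtraction. The other deposited columns used are flags, row and column positions, and whole-number or text annotation. The deposited value table holds the same processed intensity per probe, differing from the scanner values by at most 0.497%, with column medians between 9.72 and 24.8; no centring was found, and its direction is that of a single-colour signal.

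Each array held 43379 gene spots. Control spots were left out and spots with outlier flags were set missing. Values were log2 of the intensity minus the array's 75th percentile. A probe was kept if its signal stood well above background on 3 or more arrays of some site, which left 23458 of 41174 probes, and the brightest kept probe stood for a gene. Differences came from limma 3.58.1 in R 4.3.3, fitted over all 19 arrays with site as the factor, and p-values were adjusted by Benjamini-Hochberg within each of 10 comparisons. Pools were compared on 5 site means, with an exact permutation test for each member. The fit was tested on simulated data. Nothing in the labels names separate RNA extracts for the repeats, so no spread between mice can be had.

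A spot lay in a low-signal area when the median deviation of the spots within 6 rows and 2 columns (at least 10 of them), from the other arrays of its site, was -1 on the log2 scale or lower. The members and lists were chosen with earlier results of these data known. Named were all members; up to 4 called genes in each direction per list and site by size of difference; and the 5 genes most like Dbp and Arntl. Alternatives were other scalings, normexp (offset 50), no filter, the mean of probes, outliers kept, the value table, a replicate block, each array or pool left out, only 2 sites in the fit, and adjusted p alone. The number of arrays limits the precision. Probe positions are on mm8 per the file headers, except that the DR1 files name mm7; names and positions were taken from the SOL annotation. Promoter motifs were not analysed here. After the first analysis 2 genes were taken out of the lists and are not reported here.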

Additional observations from a re-analysis of the deposited data

Results flagged for a closer look

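Of 56 sets of 4 arrays (each of the 14 probes at each site with 4 arrays), 8 had an array whose gap to its nearest neighbour passed Dixon's critical value, where chance flags about 1 in 20. In 3 of the 8 the array was SOL replicate 1 with its spot in the low-signal area: Arntl at -2.05, against 0.31 to 0.51 on the other SOL arrays, Nfil3 A_52_P500027 at -0.14, against 2.64 to 2.78, and Dbp at 1.08, against 2.59 to 2.81. The other 5 had no spot in such an area. Gm129 read -1.17 on SOL replicate 3, against -0.97 to -0.94. Nr1d1 A_51_P223776 read -1.27 on DR4 replicate 2, against -1.43 to -1.41, and Nr1d1 A_52_P130961 read -2.97 on the same array, against -3.45 to -3.41. Nr1d1 A_52_P130952 read -2.49 on SOL replicate 1, against -2.85 to -2.81. Npas2 read -4.58 on SOL replicate 1, against -6.32 to -6.05, with no array of the probe well above background.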

How the results depend on the processing

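Over 90 member differences (9 genes in 10 comparisons), no call changed direction under any alternative run. With normexp background correction 29 calls were lost and 1 was gained: the members called fell from 3 to 0 at PS, 4 to 0 at DR1, 5 to 2 at DR4 and 5 to 2 at DR6 against SOL, and from 27 to 12 between pairs of polluted sites, while Nfil3 passed in the stream pools (1 member in place of 0, 1.63 ± 0.22, adjusted p = 0.0329); the cause was not tested. Over all genes normexp gave 153 to 768 calls in place of 722 to 1722, and adjusted p alone gave 5364 to 8982, and 43 member calls in place of 27 between polluted sites, since it drops the 2-fold limit. At DR1 against SOL the 4 calls became 2 with only those 2 sites in the fit, 2 without the low-signal spots, and 2 to 4 over the leave-one-out fits (2 without SOL replicate 1 or DR1 replicate 2). Leaving out 1 array gave 5 at DR4 each time, 4 to 5 at DR6, 2 to 3 at PS and 26 to 29 between polluted sites. The mean of a gene's probes lost 5 member calls, median scaling 2, and quantile normalization and no filter 1 each. Keeping outlier spots and using the deposited value table changed none. Median scaling moved the median of all genes for DR6 against PS from -0.01 to -0.18 and for DR4 against PS from -0.05 to -0.12. Leaving out 1 pool gave 0 members past the adjusted limit in each pool comparison; the SOL pool cannot be left out of the comparison with it. Whether the replicate numbers pair arrays across sites was not tested. Same-numbered arrays deviated with correlations from -0.16 to 0.48, 16 of 36 over 0.1, and other pairs with correlations from -0.41 to 0.46. Of the 19 arrays, 11 correlated best with their own number. With the replicate number as a block the member counts stayed at 3, 4, 5 and 5 against SOL and 27 between polluted sites, and among list genes Gys2 at DR6 (0.96) fell under 2-fold. Gys2 gave no value without DR6 replicate 1. Dimness leaves Npas2 at every site and Per3 at DR1 and DR4 with few or no arrays well above background, and 1 pool per site gives no spread between mice.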
